A study of Mus musculus with 6 samples.

Results

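The genes described here encode enzymes that macrophages use to redirect central carbon, amino acid and haem metabolism: Acod1 (formerly Irg1), Nos2, Arg1, Arg2, Ass1, Ido1 and Hmox1. They were chosen by name, as the probe sets that the array annotation assigns to these 7 genes, and the choice was made with the levels and changes of these arrays known, so every value of the 7 genes is a description and carries no p-value. The annotation assigns 8 of the 35557 probe sets to them. Of the 7 genes, 6 had 1 probe set of their own, among 19938 genes measured in that way, and Ass1 appeared only in probe sets shared with another gene. The values come from 6 whole-transcript mouse arrays of established cell lines, 1 array for each group. The groups were RAW264.7, a macrophage line, NIH3T3, an embryonic fibroblast line, and L929, a connective tissue fibroblast line, each after 4 h of the type I interferon IFN-β (interferon-beta), and each unstimulated. The sources used here do not give its dose. Levels are on the log2 scale made by the robust multi-array average (RMA), so a difference of 1 is a 2-fold difference.

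Acod1 makes itaconate from the citric acid cycle intermediate cis-aconitate in mitochondria, and itaconate inhibits succinate dehydrogenase. Arginine is the shared substrate of the inducible nitric oxide synthase Nos2, which yields nitric oxide and citrulline, and of the arginases Arg1 (cytosolic) and Arg2 (mitochondrial), which yield ornithine and urea, while Ass1 starts the return of citrulline to arginine. Ido1 opens the kynurenine pathway of tryptophan breakdown, and Hmox1 splits haem into biliverdin, iron and carbon monoxide. In mouse macrophages Acod1 and Nos2 are known as genes induced by microbial products and interferons, and Arg1 as a gene induced by interleukin-4.

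RefSeq promoter windows (250 bases before to 50 bases after the start, build GRCm38.p6) matched Acod1 and Ass1, 2 of the 7 genes. The bases before the Acod1 start are shown because Acod1 had the widest range of levels among the enzymes. They lie at chr14:103046762-103047011 on the plus strand, and capitals mark the motif matches listed after them.
Acod1: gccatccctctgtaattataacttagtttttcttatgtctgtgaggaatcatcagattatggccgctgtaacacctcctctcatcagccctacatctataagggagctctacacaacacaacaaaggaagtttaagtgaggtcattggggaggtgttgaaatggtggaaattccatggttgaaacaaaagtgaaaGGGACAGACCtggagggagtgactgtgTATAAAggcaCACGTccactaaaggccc
A script searched both strands of the window for 8 motifs: an interferon-stimulated response element core (GAAA and GAAA with 2 bases between), a gamma-activated sequence (TTCNNNGAA), its STAT6 type (TTC and GAA with 4 bases between), an NF-kB type site (GGG and CC with 5 bases between), an antioxidant response element core (TGACNNNGC), an AP-1 site (TGANTCA), a hypoxia response element core (ACGTG) and a TATA box (TATAAA). In the Acod1 window 3 motifs matched. The TATA letters stand from -28 to -23, counted from the start, and occur in 13.6% of 32851 promoter windows. The hypoxia core stands on the minus strand from -18 to -14 and occurs in 19.6% of windows. The NF-kB type letters stand from -55 to -46 and occur in 50.8% of windows. No match overlapped another, and the letters of the other 5 motifs are not in this window, the interferon-stimulated response element core (3.44% of windows) among them. The search took exact letters only, so near matches were not sought.

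Markers of cell type were checked before the enzymes. The 12 macrophage markers had a median log2 level of 10.72 on the stimulated and 10.62 on the unstimulated RAW264.7 array, against 3.87 to 4.24 on the fibroblast arrays, and all 12 were higher in RAW264.7 in limma. Lyz2, a lysozyme, and Cd68, a lysosomal protein, were the brightest of them in the mean over arrays. Of 11 measured fibroblast markers, led by Col1a2 and Col1a1, 10 were lower in RAW264.7 than the mean of the fibroblast lines. For Thy1 and Dcn, picked once their values were known, this difference came through NIH3T3 alone. On the NIH3T3 arrays Thy1 was at 10.09 with IFN-β and 10.45 without, against 4.66 to 5.11 on all others. Dcn was at 10.62 and 10.82 there, against 3.41 to 3.74 elsewhere. Epithelial (led by Krt8 and Cldn3), lymphocyte (Cd8a and Cd3e) and endothelial (Cdh5 and Tie1) lists had medians between 3.62 and 5.40 on every array. Of the macrophage markers 1 changed by more than 3-fold in a line: Mpeg1, a pore-forming protein gene singled out after its value was seen, changed by 4.18 in L929. The stimulated NIH3T3 array had a median level of 5.05, above the 4.72 to 4.82 of the other 5, and the median log2 change over the 19938 genes was -0.03 in RAW264.7, -0.05 in L929 and 0.17 in NIH3T3. NIH3T3 changes include that upward shift. The central 95% of all changes, the range used below to place a change, ran from -0.50 to 0.63 in RAW264.7, -0.55 to 0.92 in NIH3T3 and -0.74 to 0.78 in L929.

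**Figure D1:**
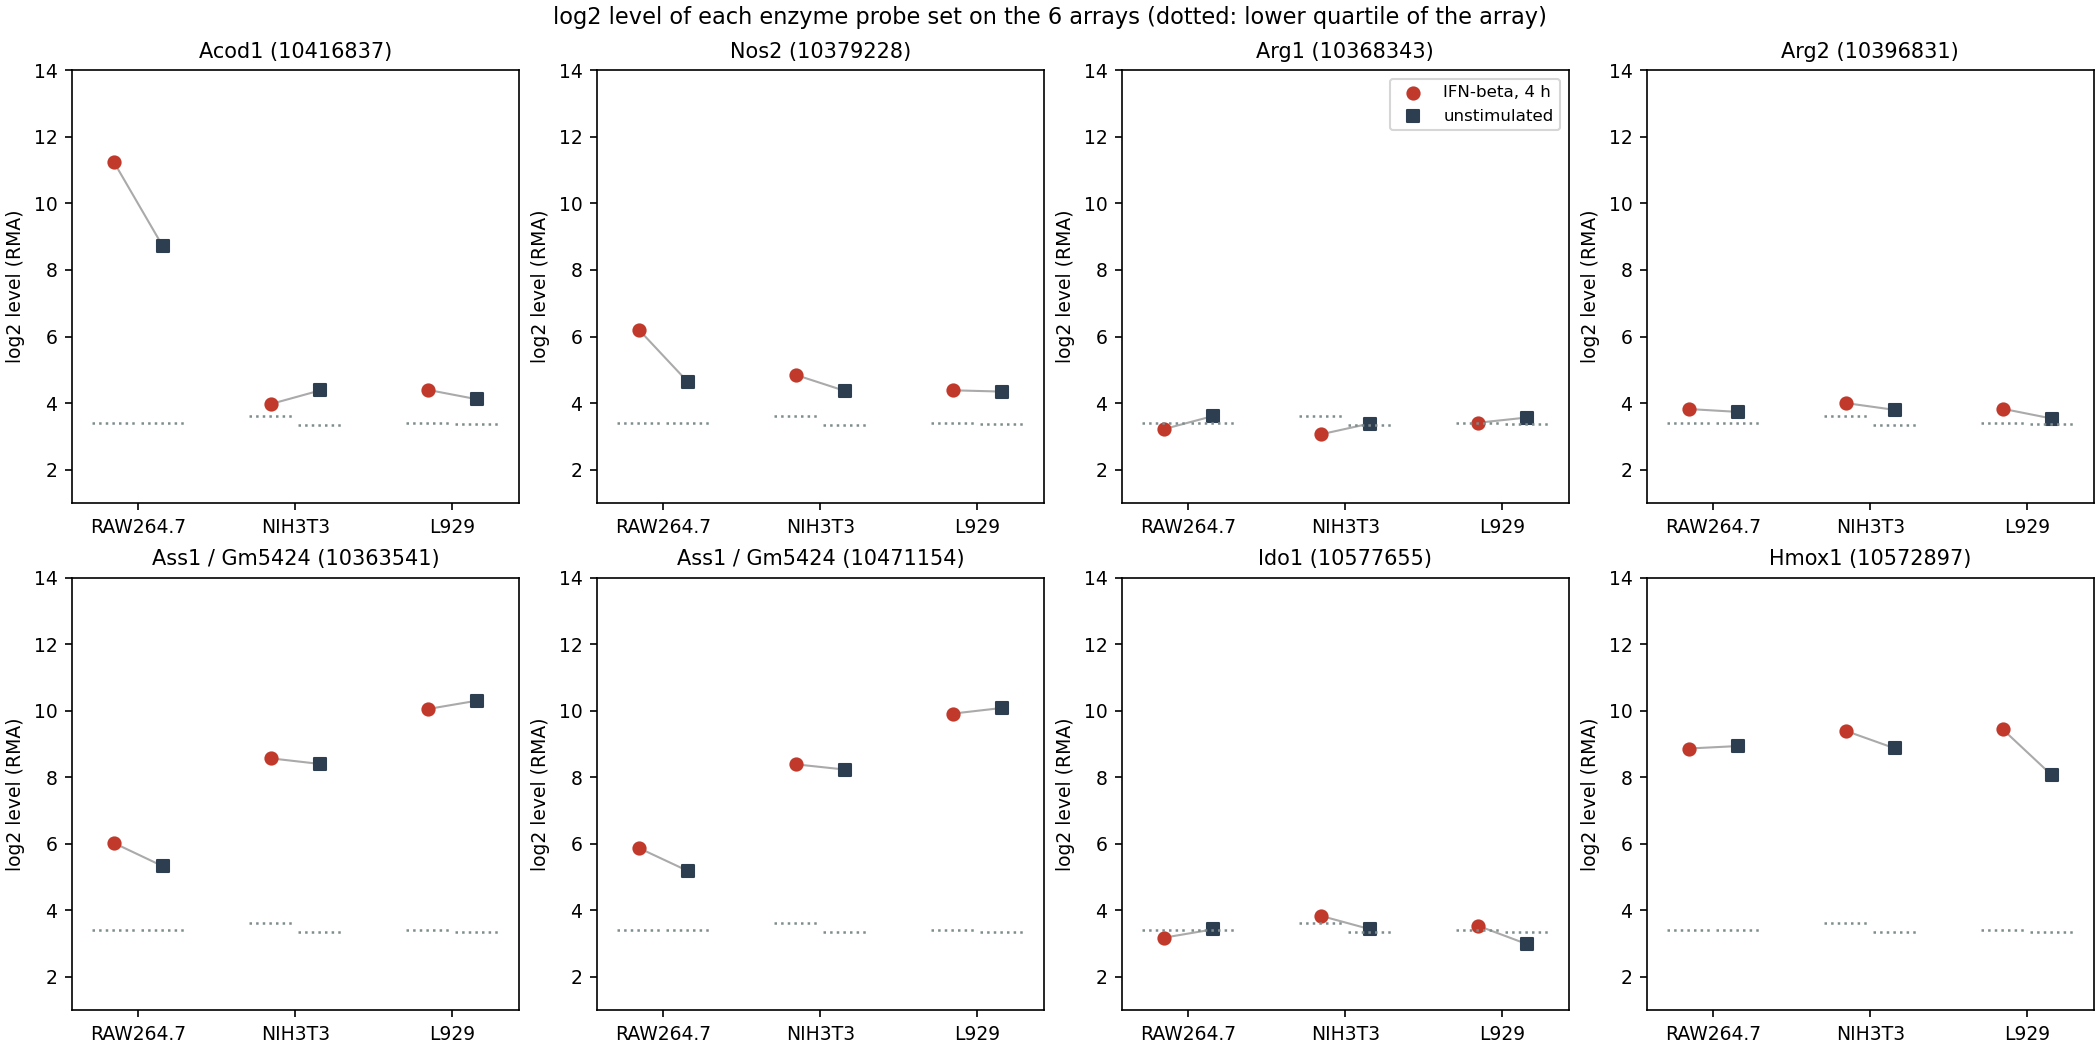
log2 level (RMA) of the 8 probe sets of the enzymes on the 6 arrays, with stimulated arrays as circles, unstimulated arrays as squares, a grey line joining the arrays of a line and a dotted line at each array's lower quartile. Acod1 reached 11.24 on the stimulated RAW264.7 array and stayed between 3.97 and 4.40 on the fibroblast arrays, while Arg1, Arg2 and Ido1 lay near the lower quartile on all 6.

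Acod1 was high in the macrophage line and higher there with IFN-β. Its probe set (10416837) had a log2 level of 11.24 in stimulated RAW264.7, against 8.71 in unstimulated RAW264.7. In NIH3T3 the level was 3.97 with IFN-β and 4.38 without, and in L929 it was 4.40 with IFN-β and 4.12 without. The 4 fibroblast arrays thus lay between 3.97 and 4.40, an order that 1 array per group cannot resolve, and both RAW264.7 arrays lay above all of them. Before stimulation the level in RAW264.7 exceeded the mean of the fibroblast lines by 4.46. With IFN-β the difference of 2.54 in RAW264.7 is 5.80-fold, and 0.286% of all genes changed more in that line. The differences of -0.41 in NIH3T3 and 0.28 in L929 lay within the central 95% of all genes there. An array averages over a culture, so more cells that express a gene and more RNA per cell cannot be told apart here or in the results below.

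Nos2 was also higher with IFN-β in RAW264.7, at lower levels than Acod1, and there its change lay outside the central 95% of all genes. Its probe set (10379228) had a log2 level of 6.21 in stimulated RAW264.7, against 4.63 in unstimulated RAW264.7. The fibroblast arrays ran from 4.34 to 4.85, at 4.85 in stimulated and 4.37 in unstimulated NIH3T3, and at 4.38 in stimulated and 4.34 in unstimulated L929. Unlike Acod1, Nos2 was thus not set apart in the unstimulated macrophage line, where its level exceeded the fibroblast mean by 0.28. The difference of 1.57 in RAW264.7 was exceeded by 0.622% of genes. It is 2.97-fold on these values, 3.03-fold with each array centred on its median and 2.85-fold after quantile normalization. The unstimulated level lay within the 2.66 to 5.51 of the 7 measured lymphocyte markers, which none of these lines should express, so the fold is approximate and may understate the change. The differences of 0.48 in NIH3T3 and 0.04 in L929 lay within the central 95% of all genes.

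At 3-fold or more, 1 of the 6 genes with a probe set of its own, Acod1, was higher in RAW264.7, where 0.617% of all genes were. Nos2 joined it with arrays centred but not after quantile normalization. None was in NIH3T3 (0 of 6, against 0.476% of all genes) or in L929 (0 of 6, against 0.893%). By that fold 0 of 6 were lower in RAW264.7 (0.0% of all genes), L929 (0.01%) or NIH3T3 (0.0401%). At 2-fold or more, Acod1 and Nos2 were higher in RAW264.7 (2 of 6, against 1.14% of all genes) and Hmox1 in L929 (1 of 6, against 1.57%), with 0 of 6 in NIH3T3 (1.73%). At 2-fold 0 of 6 were lower, against 0.0702% of all genes in RAW264.7, 0.376% in L929 and 0.286% in NIH3T3. Because the 6 were chosen with these changes known, nothing is read from the counts.

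**Figure D2:**
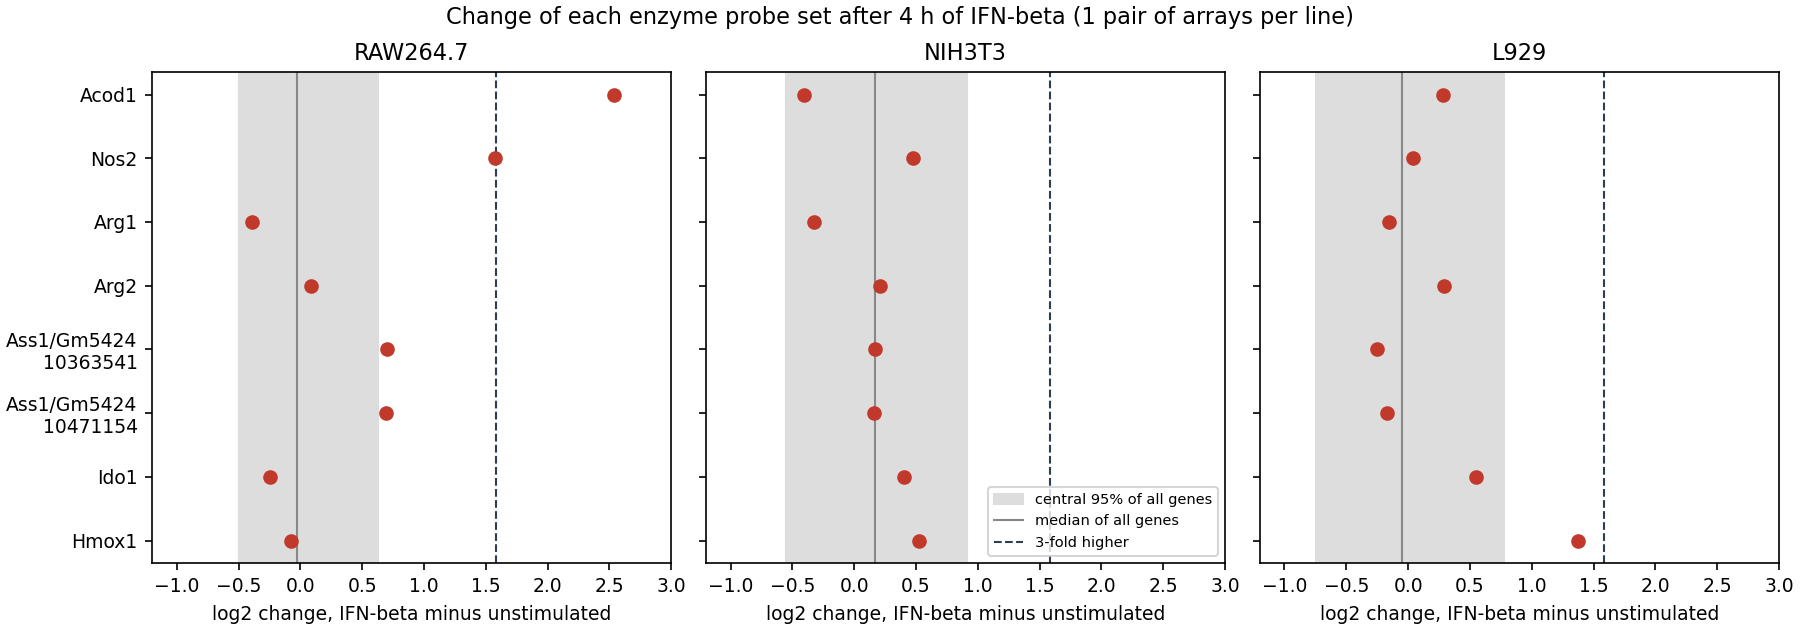
log2 change (IFN-β minus unstimulated) of each probe set in RAW264.7, NIH3T3 and L929, from 1 pair of arrays per line, with the central 95% of all 19938 genes in grey, their median as a line and 3-fold as a dashed line. Acod1, Nos2 and both Ass1/Gm5424 probe sets lie to the right of the grey band in RAW264.7, and Hmox1 does in L929.

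Genes that carry the carbon on either side of itaconate had no call across the lines, and in L929 their median change was below that of all genes. Of 25 measured genes of the citric acid cycle, its mitochondrial carriers and itaconate breakdown, 0 passed an adjusted p of 0.05 across the lines in limma with cell line as a block, where 0.732% of all genes rose and 0.0% fell. At an unadjusted p under 0.05 the list had 0 genes, and all genes had 4.2% higher and 1.27% lower. At such shares a count of 0 of 25 does not set the list apart. Their median log2 change was -0.02 in RAW264.7, -0.38 in L929 and -0.04 in NIH3T3, against medians over all genes of -0.03, -0.05 and 0.17 in the same order. In RAW264.7, where Acod1 was 5.80-fold higher, the changes of the 25 ran from -0.25 for Aco1, the cytosolic aconitase, to 0.27 for the citrate carrier Slc25a1. Sdha, the catalytic subunit of succinate dehydrogenase, changed by -0.07 in RAW264.7, -0.68 in L929 and 0.17 in NIH3T3, the widest range of the list. Idh1, the cytosolic isocitrate dehydrogenase, had the largest mean decrease, -0.35 ± 0.17 (limma SE, 3 lines, adjusted p = 0.955).

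More of the same genes were called by level than by response. In the additive limma fit, 12 of the 25 were higher in RAW264.7 than in the fibroblast lines and 3 were lower, where 13.0% of all genes were higher and 12.3% lower (2601 and 2457 genes, or 3842 and 1935 with each array centred on its median). The list is brighter than that base, with medians of 8.72 to 9.49 on the arrays against 5.07 to 5.49 over all genes. In a fit of the genes above the median level alone, 2402 were higher and 1841 lower. This fit takes the arrays of a line as its replicates, so that its error holds neither the spread between separate cultures nor that between NIH3T3 and L929. Clybl, citramalyl-CoA lyase, which acts in itaconate breakdown, had log2 levels of 7.68 with IFN-β and 7.49 without in RAW264.7, against 6.90 and 6.94 in NIH3T3 and 5.60 and 5.28 in L929, a mean difference of 1.41 ± 0.17 (SE, adjusted p = 0.000173). Sugct, a CoA transferase of dicarboxylic acids, differed by -1.76 ± 0.17 (adjusted p = 2.68e-05), but through L929 alone: it was at 3.06 with IFN-β and 2.89 without in RAW264.7, 3.24 and 2.99 in NIH3T3, and 6.36 and 6.32 in L929. The median level difference was 0.52 over the list and -0.07 over all genes.

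Genes of arginine uptake and nitric oxide synthesis, among them those for the Nos2 cofactor tetrahydrobiopterin, were measured for 16 of 17 entries. None passed across the lines (0 of 16 in limma, with 1 higher and 0 lower at an unadjusted p under 0.05, against 4.2% and 1.27% of all genes). The one was Gch1, GTP cyclohydrolase, the first and rate-limiting enzyme of tetrahydrobiopterin synthesis. Gch1 had a log2 level of 5.96 in stimulated and 4.84 in unstimulated RAW264.7, 3.67 and 3.61 in NIH3T3, and 7.13 and 5.25 in L929. Both RAW264.7 and L929 were therefore higher with IFN-β, by 2.17-fold and 3.69-fold, and NIH3T3 changed by 1.04-fold. The mean log2 change was 1.02 ± 0.29 (SE, 3 lines, limma adjusted p = 0.342). Without the NIH3T3 arrays, those of the line that changed least, it was 1.502, with an adjusted p of 0.0206. The other alternatives did not pass. Without L929 the mean was 0.59 (adjusted p = 0.804) and without RAW264.7 0.97 (0.0566). With arrays centred it was 0.94 (0.512) and after quantile normalization 0.95 (0.784). In L929 the cofactor enzyme was thus higher with IFN-β while Nos2 itself changed by 0.04.

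Transport and turnover of the substrate differed between lines in level. Slc7a7, a subunit of the y+L transporter of cationic amino acids, was higher in RAW264.7 by 1.05 ± 0.17 (SE, limma adjusted p = 0.00128) and had a mean IFN-β change of 0.36. The cationic transporter gene Slc7a3 was high in L929 alone, at 7.78 with IFN-β and 8.76 without, against 4.65 to 4.80 in RAW264.7 and NIH3T3. Ddah1, which degrades methylated arginines that inhibit nitric oxide synthases, was high in NIH3T3 alone, at 8.68 with IFN-β and 9.35 without, against 4.01 to 4.18 elsewhere. Nostrin, a protein that binds endothelial nitric oxide synthase, was higher in RAW264.7 by 3.22 ± 0.21 (adjusted p = 1.53e-06). Of the 16 genes 3 were higher and 6 lower in RAW264.7, to be set beside the 13.0% and 12.3% of all genes.

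The arginases showed neither a high level nor a change beyond that of most genes. Arg1 (probe set 10368343) had a log2 level of 3.22 in stimulated and 3.61 in unstimulated RAW264.7, 3.06 and 3.39 in NIH3T3, and 3.41 and 3.57 in L929. All 6 values lay within 0.55, and the stimulated array was the lower one in each line, by 0.39, 0.32 and 0.16, each within the central 95% of all genes. Arg2 (probe set 10396831) was at 3.82 and 3.73 in RAW264.7, 4.00 and 3.80 in NIH3T3, and 3.83 and 3.53 in L929, a range of 0.46. Arg1 was below the array's lower quartile of all probe sets on 2 arrays and Arg2 on 0. All lay within the range of the lymphocyte markers, and levels of this size do not show whether a transcript was present.

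Downstream of ornithine, 0 of 14 measured genes of polyamine, proline and urea metabolism passed across the lines, and 0 did at an unadjusted p under 0.05. Of all genes 0.732% rose and 0.0% fell across the lines in limma, and 4.2% and 1.27% did at the unadjusted p. Their median changes were -0.07 in RAW264.7, -0.34 in L929 and 0.17 in NIH3T3. Cps1, carbamoyl phosphate synthetase, and Sat1, which acetylates spermidine and spermine, had the largest mean increases, 0.27 and 0.14, each resting on 1 line: without NIH3T3 the Cps1 mean was 0.03, and without L929 the Sat1 mean was -0.02. Azin1, an activator of ornithine decarboxylase, had the largest mean decrease, -0.30. The ornithine carrier Slc25a15 ranged from -0.84 in L929 to 0.25 in NIH3T3. In level, Sat1 was higher in RAW264.7 than the fibroblast mean by 0.79 ± 0.20 (SE, limma adjusted p = 0.0134), mainly through L929. Sat1 was at 9.80 with IFN-β and 9.58 without in RAW264.7, 9.27 and 9.53 in NIH3T3, and 8.64 and 8.17 in L929. Oaz2, ornithine decarboxylase antizyme 2, was lower in RAW264.7 by 0.77 (difference -0.77 ± 0.22, adjusted p = 0.0261).

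Ass1, argininosuccinate synthetase, was covered by 2 probe sets that the annotation also assigns to Gm5424, so that the levels may come from either gene and are given for the pair. Probe set 10363541 had a log2 level of 6.02 in stimulated and 5.32 in unstimulated RAW264.7. It was at 8.57 with IFN-β and 8.40 without in NIH3T3, and at 10.05 with IFN-β and 10.30 without in L929. The lines did not overlap, L929 being highest and RAW264.7 lowest, whereas RAW264.7 was the highest line for Acod1. Probe set 10471154 gave the same order, with levels lower by 0.14 to 0.22 on each array. In RAW264.7 the pair was higher with IFN-β by 0.70 and 0.69 on the log2 scale (1.62-fold and 1.61-fold), above the central 95% of the genes there. In L929 the changes were -0.25 and -0.17, and in NIH3T3 0.17 and 0.16, the shift of all genes. Acod1, Nos2 and the Ass1/Gm5424 probe sets were therefore the ones whose change in RAW264.7 lay above that band.

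Ido1 (probe set 10577655) was low on every array. Its log2 level was 3.18 in stimulated and 3.43 in unstimulated RAW264.7, 3.83 and 3.43 in NIH3T3, and 3.54 and 2.99 in L929. It was below the array's lower quartile on 2 arrays. The changes of -0.25 in RAW264.7, 0.55 in L929 and 0.40 in NIH3T3 all lay within the central 95% of the genes, and at such levels they have little weight.

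A later enzyme of the same pathway did respond. Of 18 other measured genes of tryptophan and kynurenine metabolism, 1 rose across the lines, Kmo, kynurenine 3-monooxygenase, where 0.732% of all genes rose. Kmo (probe set 10352000) had a log2 level of 6.85 in stimulated and 4.67 in unstimulated RAW264.7, 3.62 and 2.74 in NIH3T3, and 4.49 and 2.82 in L929. The stimulated array was higher in 3 of 3 lines, by 4.53-fold, 1.84-fold and 3.20-fold, although both unstimulated fibroblast levels lay below the lower quartile of their arrays, so that their folds are approximate. The mean change was 1.58 ± 0.23 (SE, limma adjusted p = 0.0102), and 0.0861 after quantile normalization of the arrays. Kmo also stood higher in RAW264.7 than in the fibroblast lines, by 2.34 ± 0.25 (adjusted p = 5.21e-05).

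The other genes of the list did not pass. Qprt, quinolinate phosphoribosyltransferase, had the highest change of the list in NIH3T3, 0.92, beside -0.05 in RAW264.7 and 0.06 in L929. Tdo2, the tryptophan dioxygenase known from liver, had a mean change of 0.33 ± 0.18 (SE, limma adjusted p = 0.964), or 0.13 without NIH3T3, and a level between 2.24 and 2.98 on all arrays. Ahr, a receptor for kynurenine, had the largest mean decrease, -0.11. Its level in RAW264.7 differed from the fibroblast mean by -0.80 ± 0.17 (SE, limma adjusted p = 0.00637), but through NIH3T3 alone. Ahr was at 4.88 with IFN-β and 5.05 without in RAW264.7, 4.81 and 4.74 in L929, and 6.63 and 6.86 in NIH3T3. Cyp1b1, a target of that receptor, was high in NIH3T3 alone, at 7.96 with IFN-β and 7.46 without, against 3.70 to 4.19 in RAW264.7 and L929. The median change of the 18 was 0.07 in RAW264.7, -0.04 in L929 and 0.34 in NIH3T3.

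Hmox1 was abundant in all 3 lines and was higher with IFN-β in L929. Its probe set (10572897) had a log2 level of 9.44 in stimulated L929, against 8.06 in unstimulated L929, and of 9.39 in stimulated and 8.87 in unstimulated NIH3T3. In RAW264.7 it was at 8.86 with IFN-β and 8.94 without. The unstimulated L929 array was the lowest of the 6, and the remaining 5 lay between 8.86 and 9.44. The change of 1.38 in L929 is 2.60-fold, and 0.998% of genes changed more in that line. The change of 0.52 in NIH3T3 was within the central 95% of all genes, as was that of -0.07 in RAW264.7. On the same L929 arrays 2 of 11 fibroblast markers, Col1a1 (-1.22) and Col1a2 (-1.09), were more than 2-fold lower with IFN-β, and their part in the Hmox1 value was not tested.

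Other genes of haem metabolism and of the oxidative stress regulator Nrf2 held smaller changes. Of 19 measured genes 0 passed across the lines in limma, where 0.732% of all genes rose and 0.0% fell. At an unadjusted p under 0.05 the list also had 0, against 4.2% of all genes higher and 1.27% lower. In L929, where Hmox1 was 2.60-fold higher, their changes ran from -0.80 for Bach1, a repressor of Hmox1, to 0.59 for Nfe2l2, which encodes Nrf2, with a median of -0.22, and 0 of 19 differed by 2-fold in either direction, against 1.57% of all genes higher and 0.376% lower. Alas1, the first enzyme of haem synthesis, and Fech, its last, had the largest mean increases, 0.35 and 0.19. The Fech mean came from L929, where the change was 0.58, beside 0.03 in RAW264.7 and -0.03 in NIH3T3. Gclc, a subunit of glutamate-cysteine ligase, had the largest mean decrease, -0.32 ± 0.17 (SE, adjusted p = 0.964).

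The haem and Nrf2 genes differed in level between the lines, with 7 of 19 higher and 5 lower in RAW264.7. Of all genes 13.0% were higher and 12.3% lower, in the fit that takes the arrays of a line as its replicates. This list too is brighter, with medians of 8.32 to 8.86 on the arrays against 5.07 to 5.49 over all genes. Slc40a1, the iron exporter ferroportin, was at 7.44 with IFN-β and 7.19 without in RAW264.7, against 3.48 to 4.21 in the fibroblast lines, a difference of 3.44 ± 0.18 (SE, limma adjusted p = 2.79e-07). Nqo1, a quinone reductase and Nrf2 target, was low in RAW264.7, at 3.52 with IFN-β and 2.86 without, against 8.54 and 9.05 in NIH3T3 and 6.81 and 6.91 in L929. Its difference was -4.64 ± 0.23 (adjusted p = 2.35e-07), and its change ranged from 0.66 in RAW264.7 to -0.51 in NIH3T3.

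**Figure D3:**
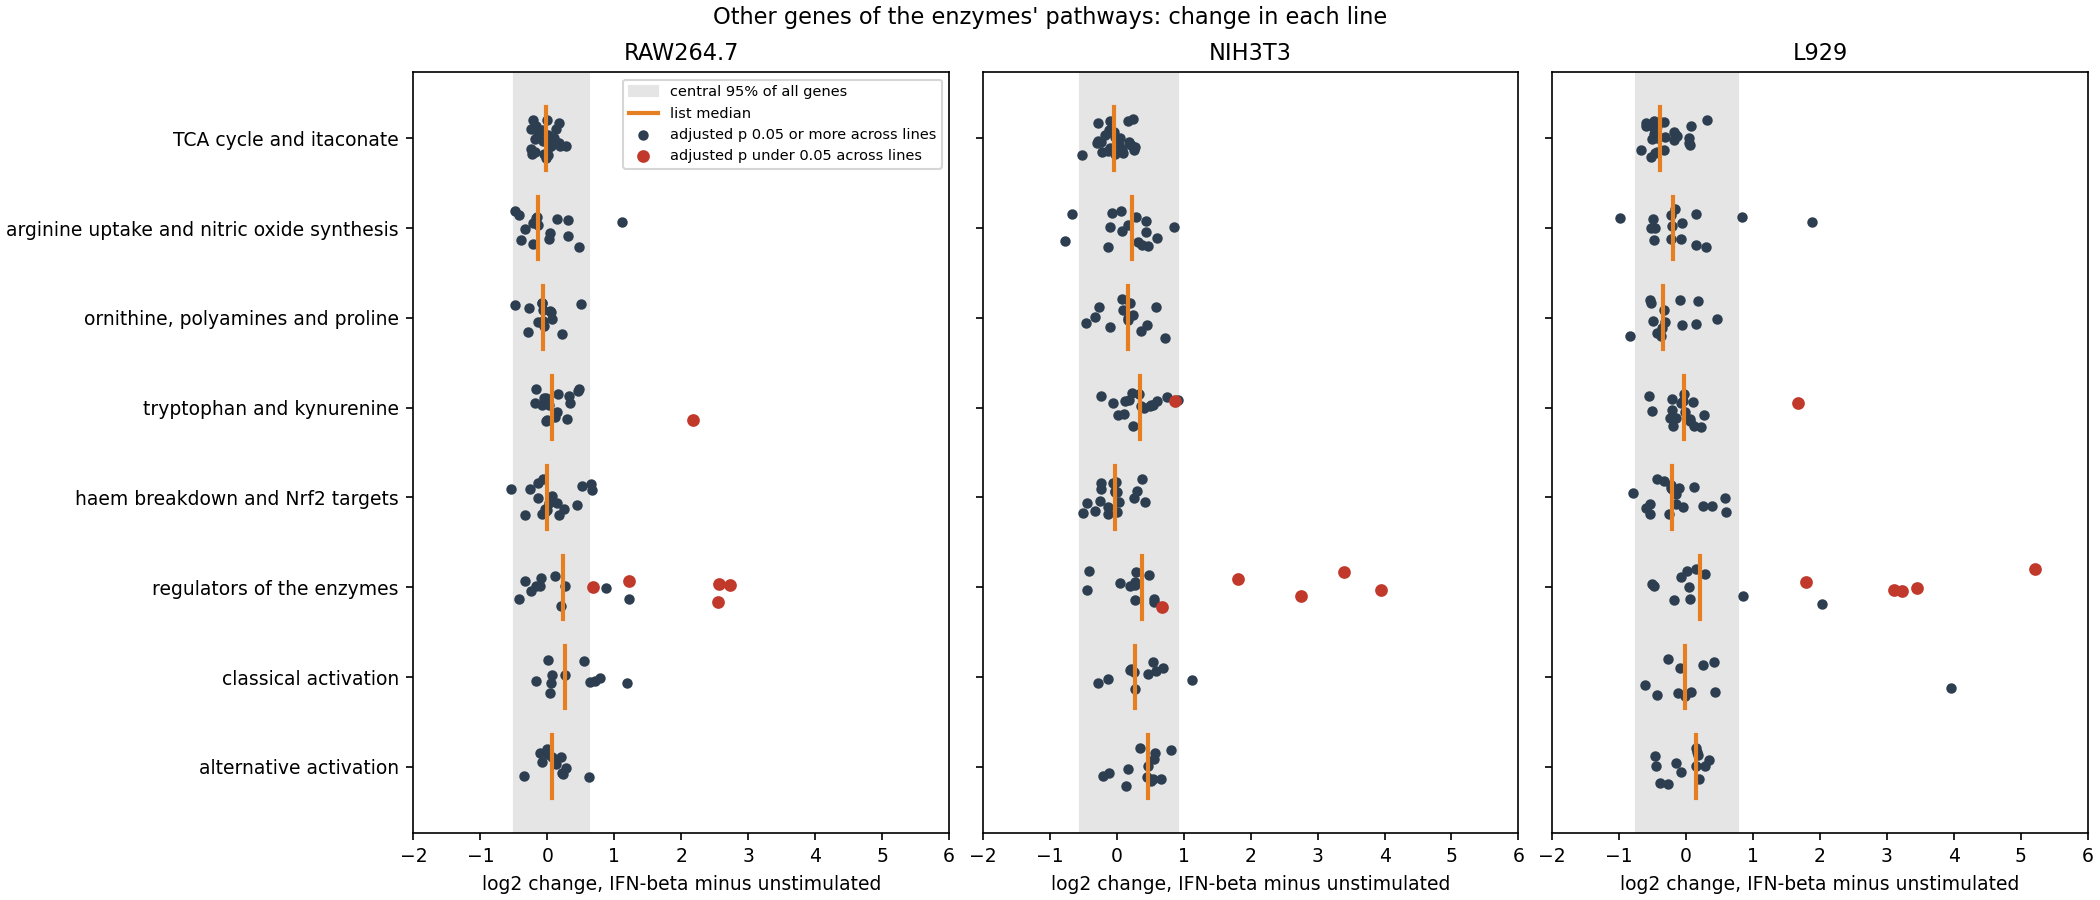
log2 change (IFN-β minus unstimulated) of every measured gene of 8 lists in RAW264.7, NIH3T3 and L929, with list medians in orange, the central 95% of all genes in grey, and genes with a limma adjusted p under 0.05 across the lines in red. The red points are Kmo and the regulators Irf1, Irf2, Irf7, Irf9 and Stat2, and most other points lie within the grey band.

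Transcription factors listed as regulators of these genes were the pathway list with the most genes called. Their binding to the enzyme genes was not measured. Of 16 measured regulators 5 rose across the lines and 0 fell in limma, where 0.732% of all genes rose and 0.0% fell. The list was chosen with earlier results of these data known, so nothing is read from this count or from its rank. Irf1, an activator of Nos2 and Ido1 in macrophages, had a log2 level of 8.99 in stimulated and 6.43 in unstimulated RAW264.7, 8.85 and 7.05 in NIH3T3, and 9.38 and 6.27 in L929, a mean change of 2.49 ± 0.23 (SE, limma adjusted p = 0.000655). With the mean over its probe sets the change was 1.51 (adjusted p = 0.0048). Stat2, a subunit of the interferon-activated factor ISGF3, rose by 3.13 ± 0.21 (adjusted p = 7.67e-05). Irf1, Stat2 and the other 3 were higher with IFN-β in 3 of 3 lines. Irf1 was thus higher in both fibroblast lines too, by 1.80 in NIH3T3 and 3.11 in L929, where the Nos2 changes were 0.48 and 0.04 and the Acod1 changes -0.41 and 0.28.

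Irf7, a driver of type I interferon transcription, rose by a mean of 3.96 ± 0.36 (SE, limma adjusted p = 0.000545), with changes of 2.73 in RAW264.7, 5.22 in L929 and 3.94 in NIH3T3. Estimated robustly with a trend, its adjusted p was 0.239. Irf9, the DNA-binding subunit of ISGF3, rose by 2.22 ± 0.39 (adjusted p = 0.0293), with 0.68 in RAW264.7, 3.23 in L929 and 2.75 in NIH3T3. Its call was lost without L929 (mean change 1.71, adjusted p = 0.134), without NIH3T3 (1.95, 0.268) after quantile normalization (2.23, 0.102) and with a robust trend (0.789). The RAW264.7 change of Irf9 was smaller than the fibroblast mean, by -2.32 ± 0.49 (SE, limma interaction, adjusted p = 0.00189), where 0.155% of all genes had a smaller and 0.0802% a larger change, and the call was lost with arrays centred (adjusted p = 0.44) or quantile normalized (0.344). The SE of that interaction is pooled over all genes and holds no spread of Irf9 itself. Irf2, a factor related to Irf1, rose by 1.23 ± 0.21 (adjusted p = 0.0291), but without L929 its mean change was 0.95 (adjusted p = 0.145), with each array centred on its median 1.15 (0.0685), and after quantile normalization 1.24 (0.062).

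The myeloid factors differed by level. Spi1, which encodes PU.1, was at 9.57 with IFN-β and 9.67 without in RAW264.7, against 3.70 to 4.08 in the fibroblast lines, and Irf5, a macrophage activation factor, was higher in RAW264.7 by 3.53 ± 0.39 (SE, limma adjusted p = 7.41e-05). Irf5 also had a change of 2.03 in L929, beside 0.26 in RAW264.7 and -0.45 in NIH3T3 (mean change 0.61, adjusted p = 0.964). Cebpb had the largest mean decrease of the list, -0.23. In level, 7 of the 16 were higher and 5 lower in RAW264.7, against 13.0% and 12.3% of all genes, which are dimmer in the median.

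**Figure D4:**
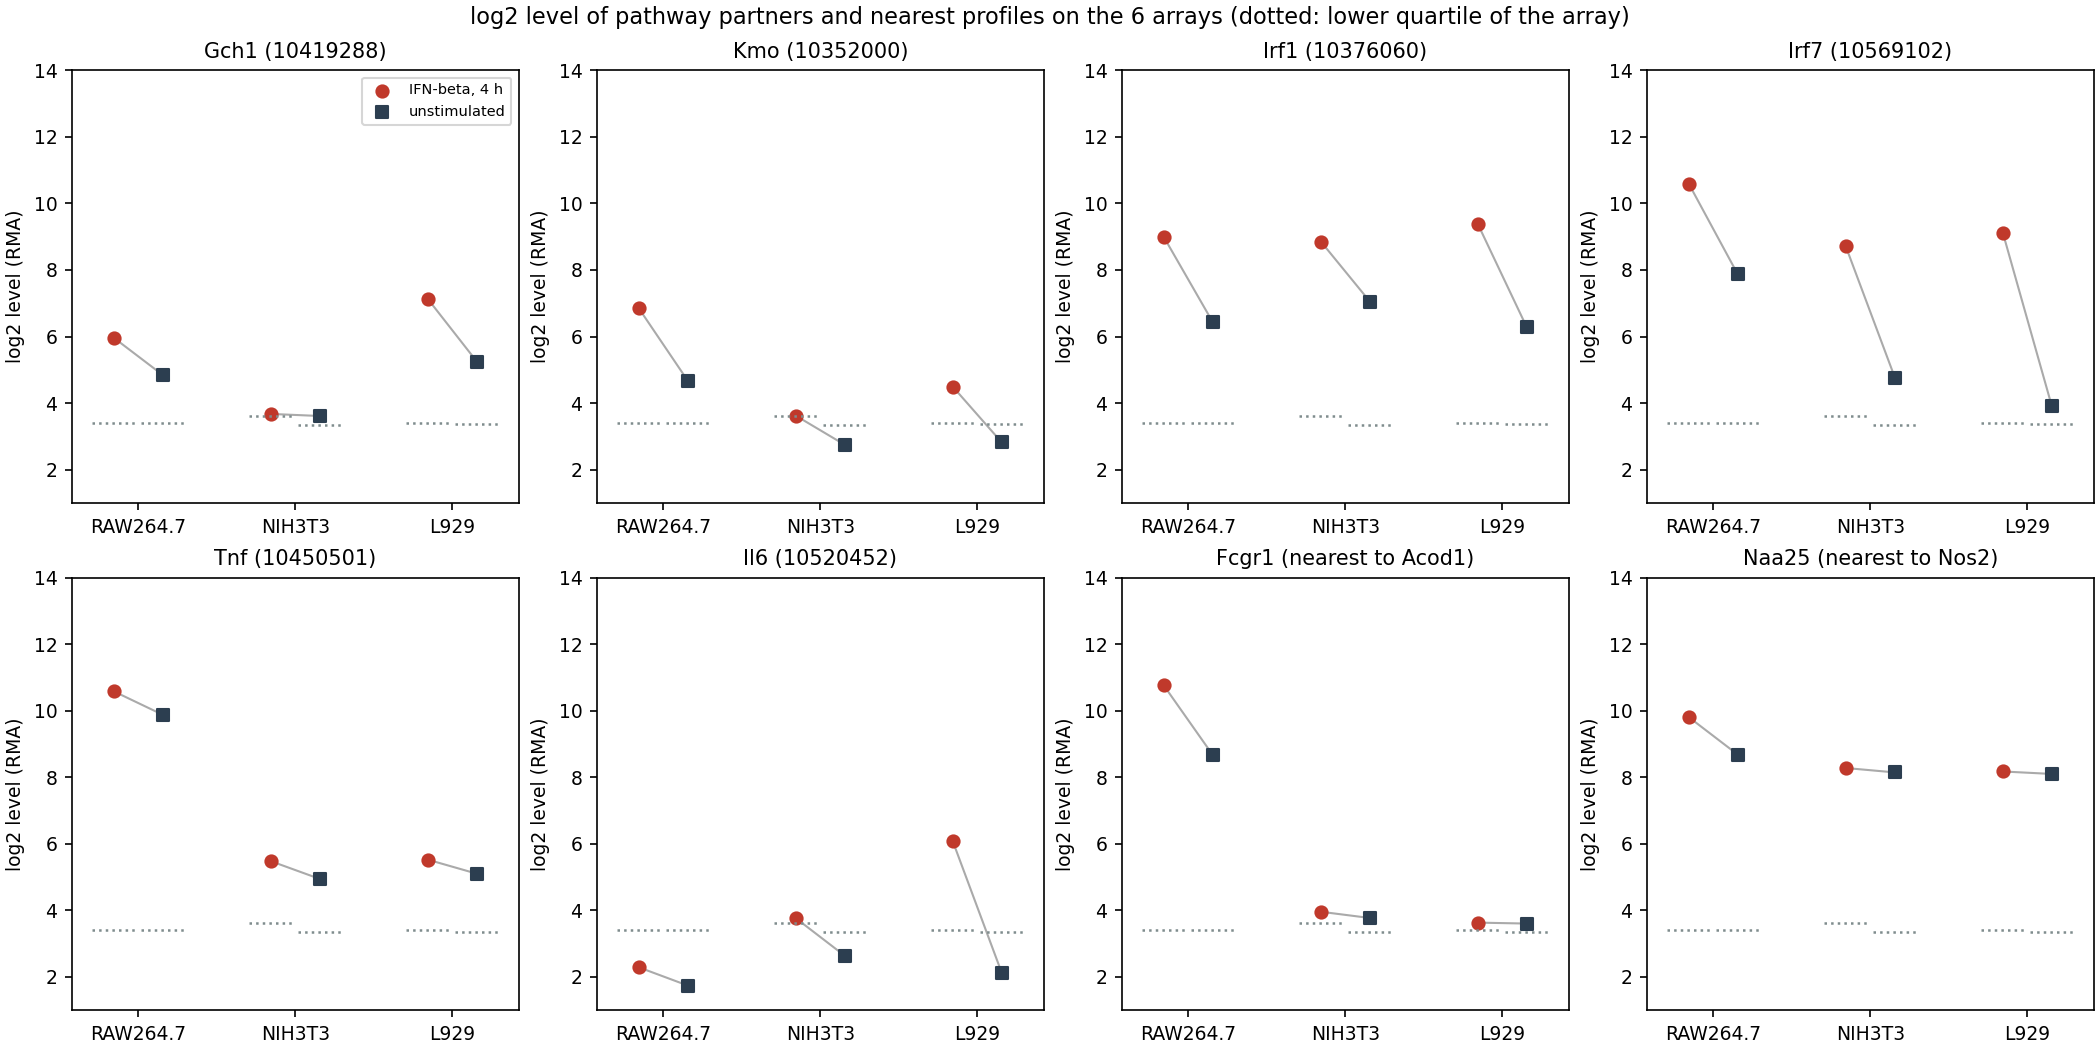
log2 level (RMA) of 6 pathway genes and of the genes with the profile nearest to Acod1 and to Nos2 on the 6 arrays, drawn as for the enzymes, with each array's lower quartile dotted. Kmo, Irf1 and Irf7 are higher with IFN-β in all 3 lines, Gch1 in RAW264.7 and L929, and Fcgr1 shows the RAW264.7 pattern of Acod1.

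Genes that mark classical macrophage activation, the state in which Acod1 and Nos2 are known to be high, were called in 0 of 11 cases across the lines (3 higher and 0 lower at an unadjusted p under 0.05 in limma, against 4.2% and 1.27% of all genes). Tnf was at 10.58 with IFN-β and 9.87 without in RAW264.7, 5.48 and 4.94 in NIH3T3, and 5.52 and 5.10 in L929, a mean change of 0.55 ± 0.16 (SE, adjusted p = 0.411). Like Acod1 it was high in unstimulated RAW264.7, with a level difference from the fibroblasts of 4.97 ± 0.17 (adjusted p = 1.9e-08), but its fold with IFN-β there was 1.63. The median change of the 11 in RAW264.7 was 0.27, and the highest was that of Ptgs2, the inducible cyclooxygenase, at 1.19. Il6 changed by 0.55 in RAW264.7, 3.96 in L929 and 1.13 in NIH3T3 (mean 1.88 ± 0.50, adjusted p = 0.281). Both RAW264.7 levels, 2.29 with IFN-β and 1.74 without, and the unstimulated levels of 2.63 in NIH3T3 and 2.11 in L929 lay below the lower quartile of their arrays, so these changes are approximate. Ccr7, a chemokine receptor, had the largest mean decrease, -0.08 (0.03 without NIH3T3).

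Of 13 genes that mark alternative activation, the state known for high Arg1, 0 passed across the lines (1 higher and 0 lower at an unadjusted p under 0.05, against 4.2% and 1.27% of all genes). Their median changes were 0.07 in RAW264.7, 0.14 in L929 and 0.46 in NIH3T3. Egr2 and Mgl2 had the largest mean increases, 0.43 and 0.33, and without NIH3T3 that of Mgl2 was 0.09. Chil3, a chitinase-like protein, lay between 2.44 and 3.36 on all arrays and ranged from 0.56 in NIH3T3 to -0.46 in L929. Fn1, fibronectin, and Il4ra, the interleukin-4 receptor chain, stood lower in RAW264.7 than in the fibroblasts, with differences of -7.33 and -1.50. Fn1 also had the largest mean decrease of the list, -0.08 (0.02 without L929).

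Profiles most like each enzyme were sought over all 19938 genes, by the root mean square difference between the 6 log2 levels after each profile was centred on its own mean. The arrays are shared, so the likeness has no p-value. Fcgr1, an Fc receptor for immunoglobulin G, was nearest to Acod1, at a root mean square difference of 0.28 (Pearson's r of 0.995 over 6 arrays). It had a level of 10.76 in stimulated and 8.66 in unstimulated RAW264.7 and of 3.60 to 3.96 on the fibroblast arrays. Ms4a6c, a membrane protein gene, followed at 0.38 and C3ar1, the receptor for complement fragment C3a, at 0.48. Within a difference of 0.5 lay 3 genes for Acod1 and 632 for Nos2. The difference is not scaled, and the levels ranged over 7.27 for Acod1 and 1.86 for Nos2. The counts therefore do not compare how rare the patterns are.

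The genes nearest to Nos2 were Naa25, an acetyltransferase subunit, at 0.19, the nuclease gene Dnase1l3 at 0.20 and the interleukin-1 receptor kinase gene Irak2 at 0.20. In RAW264.7 they changed by 1.13, 1.41 and 1.29, beside 1.57 for Nos2. H2ac4, a histone gene, was nearest to Hmox1 at 0.13, with changes of -0.46 in RAW264.7, 1.59 in L929 and 0.56 in NIH3T3. Olfr33 and the RNA gene Rmrp followed at 0.16 and 0.17. For Arg1, Arg2 and Ido1 the nearest genes differed by 0.02 to 0.07, and 15087, 15569 and 14503 genes lay within 0.5, because profiles with little variation resemble most others. Those nearest were Gm13570, Krt75 and Gm35586 for Arg1, Olfr611, Nr5a2 and Cst10 for Arg2, and Snord52, Mmd2 and Olfr1395 for Ido1.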

How the data were processed

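RNA of 6 samples was hybridised to whole-transcript Affymetrix arrays. The deposited values are log2 levels that the authors made with RMA, per the submitters' processing notes. The sources used here give neither version nor settings, and the range of the values set the log base. The annotation names 1 gene for 21789 of 35557 probe sets, several for 1621 and none for 12147. For 999 genes with several single-gene probe sets, the brightest on average stood for the gene. No filter was applied.

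Changes within a line are differences of 2 arrays, with no test. Treatment was fitted with limma 3.58.1 (R 4.3.3) and cell line as a block, on 2 residual degrees of freedom and a prior of 7.872, and p-values were adjusted by Benjamini-Hochberg over 19938 genes; they are given only for genes other than the enzymes. The block pairs arrays by their cell line. The lines stand in for replicates, and nothing says that arrays came from repeated cultures. The same model gave the level of RAW264.7 minus the fibroblast mean, and an interaction term gave its response minus theirs. The interaction fit had 1 residual degree of freedom and an infinite prior, so all genes shared the same variance. Fits were tested on simulated data. Python 3.11.15 did the rest.

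The enzymes, the 8 pathway lists and the 5 marker lists were chosen with earlier results of these data known. From each pathway list the text names genes with an adjusted p under 0.05 across the lines, the 2 largest mean increases, the largest decrease, the widest range and the 2 largest level differences, and for each enzyme the 3 nearest profiles. The brightest 2 of each marker list were also named by rule. Aco1, Slc25a1, Bach1, Nfe2l2, Ptgs2, Qprt, Mpeg1, Dcn and Thy1 were named after their values were seen. Alternatives covered probe set means, a filter at the median, median centring, quantile normalization, a robust trend, no block, each line left out and 2-fold.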

Additional observations from a re-analysis of the deposited data

Results flagged for a closer look

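Ido1 had a change of the opposite sign in RAW264.7, -0.25, to those in both fibroblast lines, 0.40 in NIH3T3 and 0.55 in L929. Hmox1 likewise had -0.074 in RAW264.7, against 0.52 in NIH3T3 and 1.38 in L929. Neither difference was tested, since the enzymes were chosen with these changes known, and each RAW264.7 value lay within the central 95% of the genes in that line.

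The RAW264.7 change of Irf9 was smaller than the fibroblast mean, by -2.32 ± 0.49 on the log2 scale (SE, limma interaction, adjusted p = 0.00189), and that of Il6 by -1.998 ± 0.49 (adjusted p = 0.0276). Both RAW264.7 levels of Il6, 2.29 with IFN-β and 1.74 without, and both unstimulated fibroblast levels lay below the lower quartile of their arrays, so its changes are approximate. Over all genes 0.0802% had a larger and 0.155% a smaller change in RAW264.7 at an adjusted p under 0.05. For Irf9 unstimulated RAW264.7 already stood at 7.58, against 4.74 in NIH3T3 and 5.17 in L929. Over 5 alternatives the adjusted p of Irf9 ran from 0.00167 to 0.44, and over the 4 that kept Il6 its own ran from 0.0251 to 1.0. The fit gave every gene the same SE, from 1 residual degree of freedom and an infinite prior. That SE is pooled over all genes. Its adjusted p therefore ranks genes by the size of the difference and does not measure the spread of Irf9 or Il6.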

How the results depend on the processing

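Across the lines 146 genes were called higher and 0 lower. Without the cell line as a block, which pairs the arrays, 2 were higher, and Kmo, Irf1, Irf2, Irf7, Irf9 and Stat2 lost their calls. With 1 line left out, 116 to 218 were higher and 0 to 5 lower, and without RAW264.7 Il6 was called (mean change 2.55). The fit without RAW264.7 gave Il6, Irf7 and Stat2 the same SE, 0.2851, so that call does not measure the spread of Il6. For the response of RAW264.7 against the fibroblasts, 16 genes were higher and 31 lower. With each array centred on its median there were 0 and 0, after quantile normalization 0 and 0, with the filter 8 higher, and with a robust trend 9 higher, and the cause was not tested. In level 2601 genes were higher and 2457 lower in RAW264.7, and after centring 3842 and 1935. At 2-fold in place of 3-fold, 228 genes were higher and 14 lower in RAW264.7, 345 and 57 in NIH3T3, and 314 and 75 in L929. With probe set means 5 genes, in place of 8, were 3-fold lower in NIH3T3. Under centring and quantile normalization the NIH3T3 changes of the enzymes were -0.68 and -0.70 for Acod1, 0.21 and 0.15 for Nos2, -0.60 and -0.62 for Arg1, -0.07 and -0.10 for Arg2 (sign turned), 0.13 and 0.08 for Ido1, and 0.25 and 0.57 for Hmox1. Probe set means could not alter them, since each has 1 probe set. The number of arrays limits all values, and levels near the lower quartile cannot be told from background.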
